A study of Rattus norvegicus with 9 samples.

Results

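The genes described are the subunits of the proteasome and immunoproteasome with their activators, inhibitor and assembly factors, taken as every row of the count table whose symbol starts with Psm, a letter from a to g and a digit. The rule found 50 of 23768 genes, and 48 of them had enough counts to be tested. It was applied to RNA of the tibia of male Sprague Dawley rats, in a study whose title concerns a peptide that mimics lysyl oxidase and the healing of diabetic bone. Total RNA was sequenced from 3 groups of 3 libraries: Model, with libraries numbered 1, 2 and 5, and GelMA and PMLGH, each with libraries numbered 2, 3 and 4. GelMA is the common abbreviation of gelatin methacryloyl, a gelatin-based hydrogel, and the labels do not spell out PMLGH. What the Model rats underwent, whether the other groups underwent it too, the rats' age and the time of sampling are not stated in the labels. Replicates are not said to be separate animals, so the p-values measure the spread between these libraries, which may be partly technical.

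The proteasome is the main protease for ubiquitin-tagged proteins in the cytosol and nucleus. Its barrel-shaped core is built of alpha and beta rings, and the beta subunits Psmb5, Psmb6 and Psmb7 carry its catalytic sites. Under interferon-gamma, and in many immune cells, newly made cores take up Psmb8, Psmb9 and Psmb10 at these sites in place of Psmb5, Psmb6 and Psmb7, and this immunoproteasome favours peptides that MHC class I molecules can present. A regulatory particle of ATPases (Psmc genes) and non-ATPases (Psmd genes) binds, unfolds and feeds in the tagged proteins, while Psme activators open the core without ubiquitin. RNA levels do not show which subunits were built into particles.

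Libraries held between 34571478 and 37166383 counts. Levels are given as FPKM (fragments scaled to gene length and library total, which allow genes to be compared) or as CPM (which corrects for library size by TMM but not for length), each as the mean ± SD over n = 3 libraries. Tests are edgeR's quasi-likelihood test on all 16816 tested genes with Benjamini-Hochberg adjustment, and adjusted p under 0.05 was called. PMLGH against Model and GelMA against Model share the Model libraries, so both read the same 3 values on that side. Model 2 stood apart from its group, since the chi-square of its counts averaged 33.0 per gene against Model 1 and 27.7 against Model 5, while Model 1 against Model 5 gave 15.7. Values without it are given for the called members. The labels name no batch, and a batch that followed the groups cannot be told apart from treatment. In whole bone, fewer cells of a type and less RNA per cell cannot be told apart either.

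The members as a whole were expressed at nearly the same level in the 3 groups. Their summed level was 2862 ± 12.3 FPKM in Model, 2776 ± 39.2 FPKM in GelMA and 2772 ± 65.0 FPKM in PMLGH, or 0.418%, 0.408% and 0.403% of all counts. The mean level over all 9 libraries ran from 5.77 FPKM for Psmg2, a chaperone of core assembly, to 144.5 FPKM for the alpha subunit Psma7, with a median of 61.4 FPKM over the 48 tested genes (both ends were picked after their values were seen). Core subunits lay above those of the regulatory particle: the 14 constitutive core subunits had a median of 78.0 FPKM and the 17 regulatory subunits one of 61.4 FPKM. For members the highest library was a median of 1.19 times the lowest in CPM, and for all tested genes 1.53 times. These sets were not matched for level. Every tested member had at least 292 counts in each library, whereas all tested genes include some with far fewer, where counting noise widens this ratio. The contrast therefore does not show that members varied less than genes of like counts. The 2 members that did not reach testing are tissue-restricted variants. Psma8, an alpha subunit of the testis, had counts of 0, 0 and 0 in Model, 2, 1 and 0 in GelMA and 4, 0 and 0 in PMLGH, and Psmb11, the beta subunit of the thymus, had 2, 0 and 1 in Model and 0 in every other library. The rule also took in Psmc3ip, a recombination factor, and Psme3ip1, which binds Psme3; neither is a subunit, and neither was called in any comparison.

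In PMLGH against Model, the immunoproteasome subunits Psmb9 and Psmb10 were the only members called higher, by small amounts, while Psmb8 and the constitutive catalytic subunits were not called. Over all tested members 2 of 48 were called higher and 5 lower, beside 15.7% of all genes called higher and 11.9% lower. In GelMA against Model 0 of 48 were called higher and 5 lower, beside 12.7% and 9.88% of all genes. In PMLGH against GelMA 0 of 48 were called in each direction, beside 1.8% and 1.64% of all genes. At an unadjusted p under 0.05 edgeR gave 1 higher member for GelMA against Model, beside 19.2% of all genes, and for PMLGH against GelMA it gave 3 higher and 2 lower, beside 8.38% and 7.23%, while DESeq2 and limma called 0 in each of these. With RLE or upper-quartile scaling in place of TMM only Psmb10 was called higher in PMLGH, with 6 and 8 members lower.

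Psmb9 replaces the constitutive subunit Psmb6. Its level was 42.1, 49.0 and 43.0 FPKM in Model 1, 2 and 5, then 49.6, 45.5 and 47.8 FPKM in GelMA 2, 3 and 4, and 53.6, 52.7 and 49.3 FPKM in PMLGH 2, 3 and 4. Every PMLGH library lay above every Model library, Model 2 came close to PMLGH 4, and GelMA overlapped both groups in FPKM. In CPM, which adds the TMM correction, the highest GelMA library (47.6) lay just below the lowest PMLGH library (48.0). On the log2 scale Psmb9 was higher by 0.20 ± 0.07 (SE) in PMLGH than in Model (edgeR adjusted p = 0.045), by 0.06 ± 0.07 in GelMA than in Model (adjusted p = 0.63) and by 0.15 ± 0.07 in PMLGH than in GelMA (adjusted p = 0.34). The call against Model is close to the threshold: 12 of 18 alternatives lost it, with adjusted p from 0.015 to 0.17 over all 18. It was lost without Model 1 (0.17), Model 5 (0.17), GelMA 3 (0.074), GelMA 4 (0.082), PMLGH 2 (0.14), PMLGH 3 (0.13) or PMLGH 4 (0.057), and kept without Model 2 (0.23, adjusted p = 0.015). The other losses were with RLE scaling (0.061), upper-quartile scaling (0.082), no filter (0.09), DESeq2 (0.072) and a fit of these 2 groups alone (0.075).

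Psmb10 replaces Psmb7, and it showed the larger difference. Model 1, 2 and 5 had 28.3, 37.5 and 32.4 FPKM, GelMA 2, 3 and 4 had 36.9, 35.8 and 37.2 FPKM, and PMLGH 2, 3 and 4 had 41.2, 38.5 and 39.4 FPKM. All PMLGH libraries exceeded all others, and Model 2 alone in its group reached the GelMA values. Its log2 difference was 0.27 ± 0.08 for PMLGH against Model (edgeR adjusted p = 0.03), 0.12 ± 0.09 for GelMA against Model (adjusted p = 0.33) and 0.14 ± 0.08 for PMLGH against GelMA (adjusted p = 0.46). Of 18 alternatives 12 kept the call against Model, with adjusted p from 0.0023 to 0.15. It was lost without Model 1 (0.15), Model 5 (0.087), PMLGH 2 (0.096), PMLGH 3 (0.056) or PMLGH 4 (0.075), and in a fit of these 2 groups alone (0.057), while without Model 2 the difference was 0.34 (0.0023).

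Psmb8, which replaces Psmb5, was the most abundant of the 3 immunoproteasome subunits and did not follow the other two. It had 89.4, 95.1 and 92.1 FPKM in Model, 98.3, 92.2 and 92.9 FPKM in GelMA and 102.2, 89.7 and 92.6 FPKM in PMLGH, in the order of the replicate numbers. The groups overlapped, and PMLGH 2 was the highest library. The log2 difference was 0.03 ± 0.06 for PMLGH against Model (edgeR adjusted p = 0.79), -0.00 for GelMA against Model (adjusted p = 0.98) and 0.03 for PMLGH against GelMA (adjusted p = 0.88). Its sign in PMLGH against Model turned with upper-quartile scaling (-0.0088) and without PMLGH 2 (-0.0405).

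None of the constitutive catalytic subunits was called in any comparison. Psmb5 had 69.4 ± 1.5 FPKM in Model, 70.4 ± 5.7 FPKM in GelMA and 68.9 ± 1.7 FPKM in PMLGH. Psmb6 had 80.0 ± 0.61, 80.1 ± 4.6 and 77.4 ± 4.3 FPKM in the same order, and Psmb7 had 107.1 ± 1.6, 102.6 ± 4.5 and 100.9 ± 2.9 FPKM. The log2 differences of PMLGH against Model were -0.03 ± 0.06 for Psmb5 (edgeR adjusted p = 0.81), -0.06 ± 0.06 for Psmb6 (adjusted p = 0.53) and -0.10 ± 0.05 for Psmb7 (adjusted p = 0.19). Every PMLGH library lay below every Model library for Psmb7. Among the 6 catalytic genes Psmb7 was thus the most abundant and Psmb10, its replacement, the least.

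**Figure D1:**
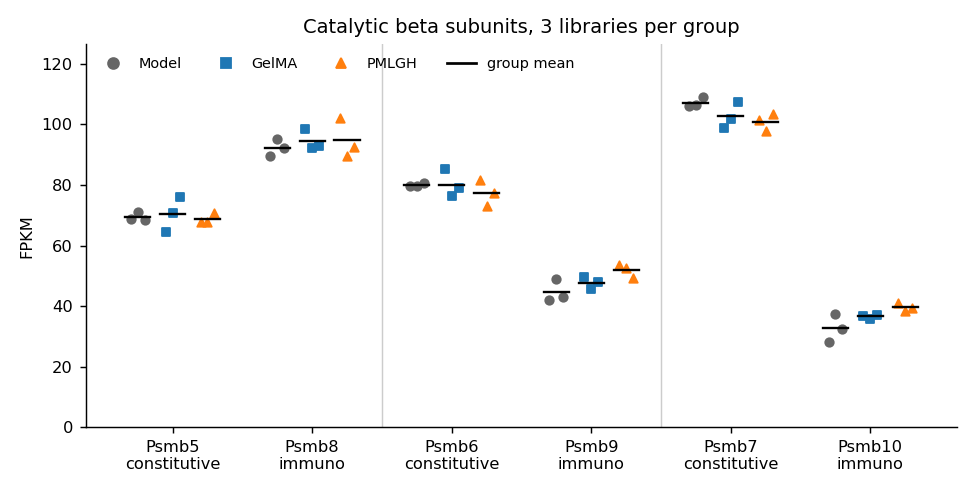
FPKM of the 6 catalytic subunits in each of the 9 libraries (points), with the group mean (black line), for Model, GelMA and PMLGH. Psmb9 and Psmb10 lie higher in all 3 PMLGH libraries than in the Model libraries, while Psmb8, Psmb5, Psmb6 and Psmb7 overlap or lie slightly lower.

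Within a library, the ratio of an immunoproteasome subunit to the subunit it replaces does not depend on library scaling. Psmb10 over Psmb7 in FPKM was 0.267, 0.353 and 0.297 in Model, 0.374, 0.351 and 0.347 in GelMA and 0.406, 0.394 and 0.381 in PMLGH. Psmb9 over Psmb6 was 0.529, 0.614 and 0.533 in Model, 0.582, 0.597 and 0.606 in GelMA and 0.656, 0.721 and 0.639 in PMLGH. For both pairs every PMLGH library lay above every Model and GelMA library, and Model 2 was the highest Model library. As a share of the pair, Psmb10 made up 23.4 ± 2.5% in Model, 26.3 ± 0.78% in GelMA and 28.2 ± 0.64% in PMLGH, and Psmb9 made up 35.8 ± 1.9%, 37.3 ± 0.49% and 40.2 ± 1.5%. Psmb8 made up 57.0%, 57.3% and 57.9% of its pair with Psmb5, so in this pair alone the immunoproteasome subunit was the more abundant one.

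The log2 ratio of Psmb10 to Psmb7 was higher by 0.37 ± 0.12 (SE) in PMLGH than in Model and by 0.14 ± 0.04 in PMLGH than in GelMA. For Psmb9 over Psmb6 these differences were 0.27 ± 0.09 and 0.17 ± 0.06. All 4 had an exact two-sided permutation p of 0.1, the smallest that 3 against 3 libraries allow, or 0.225 after Benjamini-Hochberg adjustment over the 9 ratio comparisons, so none could reach 0.05. GelMA against Model gave 0.23 ± 0.12 for Psmb10 over Psmb7 (exact permutation p = 0.3, adjusted 0.54) and 0.09 for Psmb9 over Psmb6 (exact permutation p = 0.4, adjusted 0.6). The ratio of Psmb8 to Psmb5 differed by 0.05 ± 0.07 between PMLGH and Model (exact permutation p = 0.8, adjusted 0.9), within the spread of the libraries. Without Model 2 the PMLGH-against-Model differences were 0.48 for Psmb10 over Psmb7 and 0.34 for Psmb9 over Psmb6, with an exact permutation p of 0.2 for each, the smallest that 3 against 2 libraries allow.

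**Figure D2:**
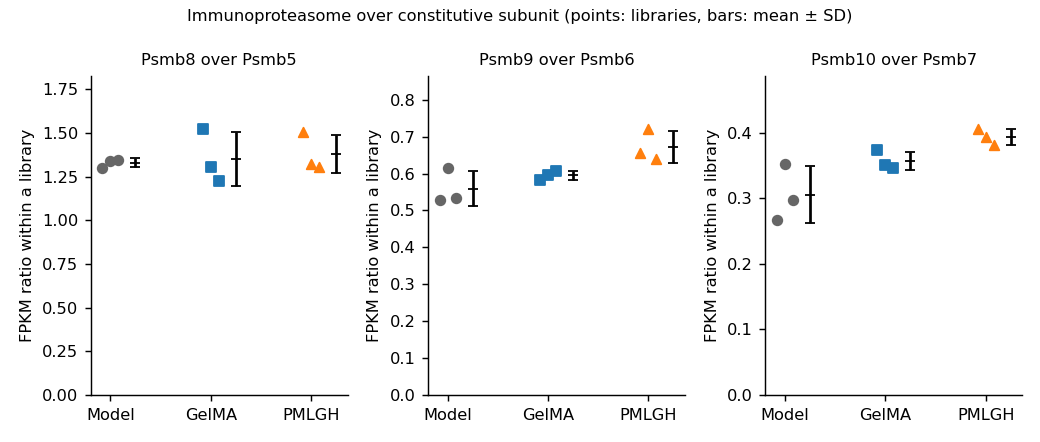
Ratio of each immunoproteasome subunit to the constitutive subunit it replaces, in FPKM, per library (points) with group mean and SD (bars). The 3 PMLGH libraries lie above all others for Psmb9 over Psmb6 and Psmb10 over Psmb7, and the groups overlap for Psmb8 over Psmb5.

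The promoters of Psmb8 and Psmb10, but not of the other catalytic subunits, held letters of the interferon-stimulated response element, the site of interferon regulatory factors such as Irf1. Promoter sequences of the immunoproteasome subunits, of the constitutive subunits and of the interferon-inducible genes Psme2 and Tap1 are shown to compare them. Each run is the RefSeq sequence of the GRCr8 build from 130 bases before the annotated start to 20 bases of the transcript, 5′ to 3′ on the gene's strand, in lower case with matches to its core in capitals (GAAA, any 2 bases and GAAA, or TTTC, any 2 bases and TTTC where it lies on the other strand). The labels do not name the build behind the counts, and the coordinates are those of GRCr8 alone. They are Psmb8 at chr20:4657012-4657161 on the minus strand, Psmb9 at chr20:4668870-4669019 on the plus strand, Psmb10 at chr19:50743273-50743422 on the minus strand, Psmb5 at chr15:32047360-32047509 on the minus strand, Psmb6 at chr10:55737758-55737907 on the plus strand, Psmb7 at chr3:42827451-42827600 on the minus strand, Psme2 at chr15:33052732-33052881 on the minus strand and Tap1 at chr20:4668524-4668673 on the minus strand.
Psmb8: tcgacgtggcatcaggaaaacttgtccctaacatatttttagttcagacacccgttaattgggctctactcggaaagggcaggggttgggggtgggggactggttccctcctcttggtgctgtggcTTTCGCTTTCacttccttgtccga
Psmb9: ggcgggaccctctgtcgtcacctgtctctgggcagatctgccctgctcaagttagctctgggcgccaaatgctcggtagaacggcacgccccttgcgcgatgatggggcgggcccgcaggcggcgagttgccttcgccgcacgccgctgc
Psmb10: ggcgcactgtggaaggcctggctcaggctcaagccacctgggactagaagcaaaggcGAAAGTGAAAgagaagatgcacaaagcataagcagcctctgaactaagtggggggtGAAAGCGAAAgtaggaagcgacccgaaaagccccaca
Psmb5: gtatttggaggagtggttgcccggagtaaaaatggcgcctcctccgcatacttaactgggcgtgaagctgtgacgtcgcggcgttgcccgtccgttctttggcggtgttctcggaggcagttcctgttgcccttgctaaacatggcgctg
Psmb6: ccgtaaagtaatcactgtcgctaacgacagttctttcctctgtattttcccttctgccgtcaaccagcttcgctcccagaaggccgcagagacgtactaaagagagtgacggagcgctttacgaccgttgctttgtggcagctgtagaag
Psmb7: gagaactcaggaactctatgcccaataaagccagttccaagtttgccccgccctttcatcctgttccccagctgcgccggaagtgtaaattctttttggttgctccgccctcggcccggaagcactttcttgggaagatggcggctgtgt
Psme2: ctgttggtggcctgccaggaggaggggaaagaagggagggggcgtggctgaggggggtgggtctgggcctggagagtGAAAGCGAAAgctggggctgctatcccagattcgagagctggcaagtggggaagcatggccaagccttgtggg
Tap1: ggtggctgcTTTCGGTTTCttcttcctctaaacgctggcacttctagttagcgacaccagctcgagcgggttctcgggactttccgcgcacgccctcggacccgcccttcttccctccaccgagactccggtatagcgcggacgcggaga

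Psmb10 held 2 matches, starting 73 and 17 bases before its annotated start. Psmb8 held 1 across the start itself, Psme2 held 1 at 53 bases before it and Tap1 held 1 at 121 bases before it. Psmb9 held none in its own window, although the Tap1 match lies in the stretch between the starts of Tap1 and Psmb9, which are read in opposite directions. Psmb5, Psmb6 and Psmb7 held none. Windows of 300 bases (250 before the start) with this core made up 3.92% of all 33469 RefSeq windows and 7 of the 45 members that had a window (15.6%), a set that includes the constitutive subunits Psma4, Psmb3 and Psmd7. In PMLGH against Model, Psmb10 held the core and was called higher, and Psmb8, Psme2 and Tap1 held it and were not called. Psmb9 lacked it and was called higher, a call close to the threshold. Whether the core had a part in these levels was not tested. The antioxidant response element core TGANNNNGC (either strand; reverse GCNNNNTCA), bound by Nfe2l1 and Nfe2l2, was in 40.5% of all windows and 23 of 45 members (51.1%), among them Psmb5, Psmb6, Psmb7 and Psmb9. The gamma-activated site TTCNNNGAA (its own reverse complement) was in 8.87% of windows and 4 of 45 members (8.89%). A match is a description of letters and not of binding.

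Of the activators, Psme1 and Psme2 form the interferon-inducible PA28 ring, Psme3 forms the nuclear ring and Psme4 encodes PA200. Psme2 had 59.0, 68.0 and 63.8 CPM in Model, 68.3, 65.2 and 62.7 CPM in GelMA and 70.6, 69.9 and 72.0 CPM in PMLGH. All PMLGH libraries lay above the other 6, yet the log2 difference of 0.15 ± 0.06 against Model was not called (edgeR adjusted p = 0.084), nor was that of 0.11 ± 0.06 against GelMA (adjusted p = 0.41). Without Model 2 the difference of Psme2 between PMLGH and Model was called (0.18, adjusted p = 0.04), and over 18 alternatives its adjusted p ran from 0.04 to 0.32. Its partner Psme1 had 140.3 ± 8.8 CPM in Model, 135.6 ± 4.3 CPM in GelMA and 142.9 ± 11.6 CPM in PMLGH (PMLGH against Model 0.03, adjusted p = 0.81; the sign turned with upper-quartile scaling). Psme3 had 110.5 ± 6.9, 100.3 ± 5.9 and 112.6 ± 5.4 CPM, and Psme4 had 309.1 ± 9.3, 324.7 ± 9.6 and 288.6 ± 21.3 CPM. Neither was called in any comparison, with adjusted p of 0.8 and 0.26 for PMLGH against Model and 0.21 and 0.17 for PMLGH against GelMA.

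Few constitutive subunits were called lower against Model, at shares near those of all genes, and 0 were called higher. In PMLGH 3 of the 31 tested subunits of core and regulatory particle were called lower and 0 higher, with a median log2 difference of -0.06. Of all genes 11.9% were called lower and 15.7% higher in PMLGH. In GelMA also 3 of these subunits were lower and 0 higher, with a median of -0.10, beside 9.88% of all genes lower and 12.7% higher. The medians over all tested genes were 0.02 and 0.03. Counted by libraries that do not overlap in CPM, 15 of 48 members lay lower in PMLGH than in Model and 4 higher, beside 18.4% and 21.1% of all genes, and 18 lay lower in GelMA than in Model and 0 higher, beside 16.8% and 19.8%. In FPKM, without the TMM correction, these counts were 11 lower and 4 higher for PMLGH, beside 17.2% and 21.8% of all genes, and 9 lower and 4 higher for GelMA, beside 13.7% and 22.8%. Differences were small: over all 48 members they ran from -0.36 to 0.27 for PMLGH and from -0.32 to 0.32 for GelMA.

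**Figure D3:**
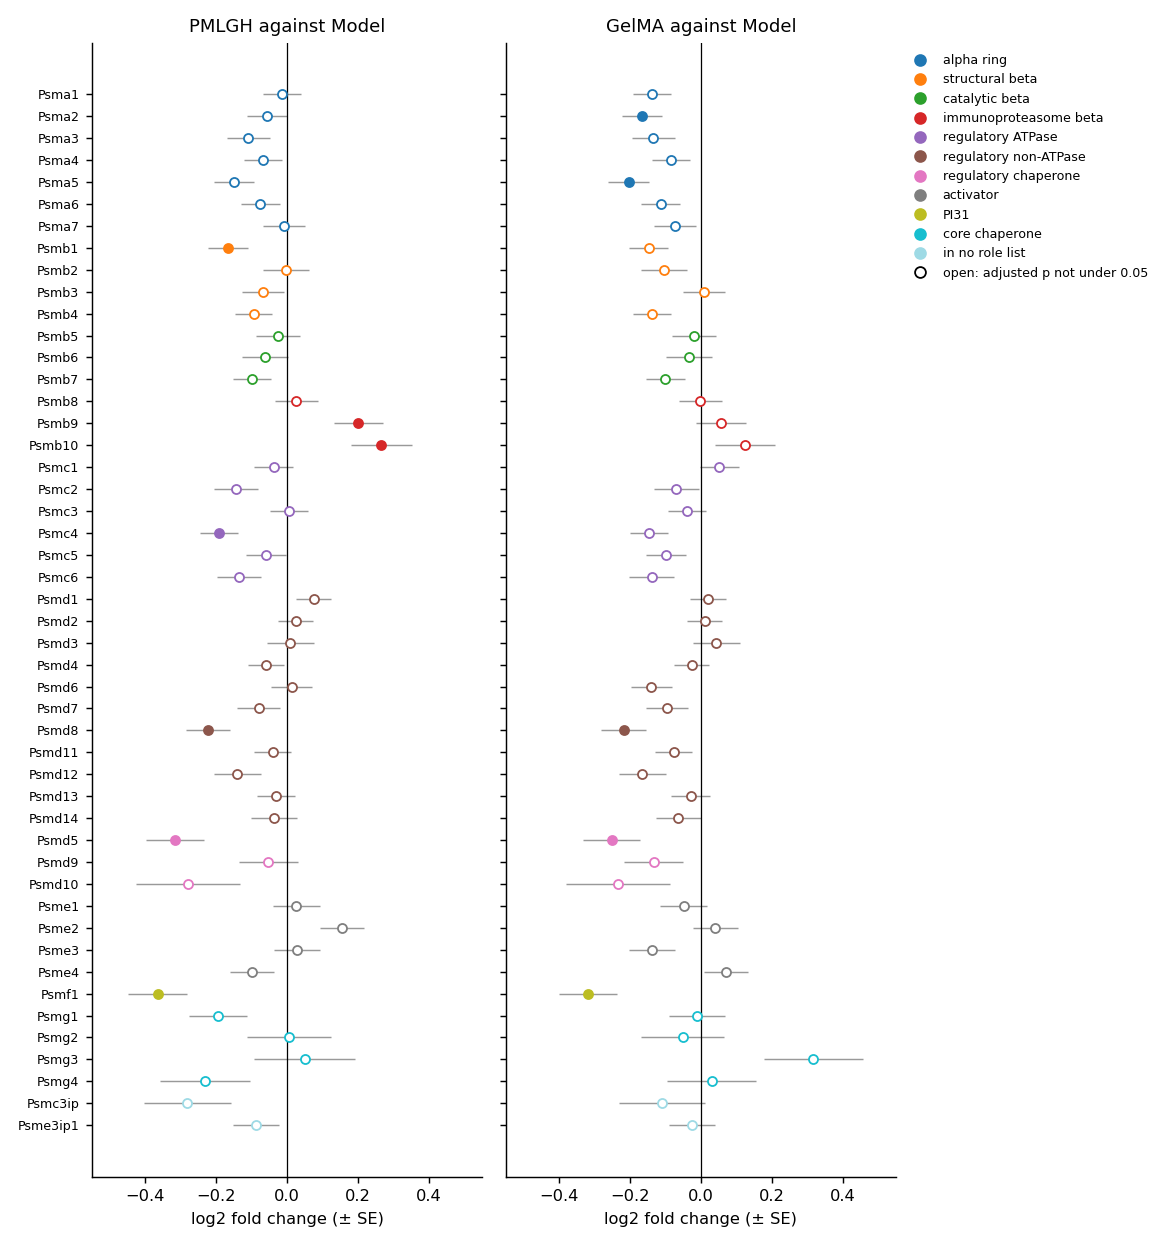
Log2 difference with its SE for each of the 48 tested members in PMLGH against Model and GelMA against Model, ordered by role; filled points passed the edgeR test. Most points lie slightly below 0 in both comparisons, which share the Model libraries, and Psmb9 and Psmb10 in PMLGH are the only filled points above 0.

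Among the alpha subunits, which form the outer rings and the gate of the core, Psma5 and Psma2 were called lower in GelMA. Psma5 had 83.6, 78.2 and 80.2 CPM in Model, 73.1, 68.2 and 68.7 CPM in GelMA and 74.8, 69.7 and 73.6 CPM in PMLGH. Its GelMA and PMLGH libraries all lay below the Model libraries. The log2 difference was -0.20 ± 0.06 in GelMA (edgeR adjusted p = 0.019) and -0.15 in PMLGH, which was not called (adjusted p = 0.067) but was with RLE scaling (0.046), upper-quartile scaling (0.03) or DESeq2 (0.048), or without Model 2 (-0.20, 0.015). The GelMA call was lost without Model 1 (0.079), GelMA 3 (0.06) or GelMA 4 (0.057), and without Model 2 the GelMA difference was -0.26 (0.0037). Psma2 had 94.6, 86.7 and 93.8 CPM in GelMA against 107.4, 100.9 and 100.5 CPM in Model, a log2 difference of -0.17 ± 0.06 (adjusted p = 0.044) that 10 of 18 alternatives lost: those without Model 1 (0.17), Model 5 (0.063), GelMA 2 (0.056), GelMA 3 (0.14), GelMA 4 (0.06), PMLGH 3 (0.059) or PMLGH 4 (0.062), with limma (0.082 and 0.08) and in a fit of these 2 groups alone (0.053). Without Model 2 it was -0.21 (adjusted p = 0.011). Over the 7 tested alpha subunits the median difference was -0.13 in GelMA and -0.07 in PMLGH. Psmb1, a structural beta subunit, was called lower in PMLGH (139.3, 131.8 and 135.3 CPM against 157.6, 145.2 and 153.0 CPM in Model; log2 difference -0.17 ± 0.06, adjusted p = 0.039). Leaving out Model 1 (0.14), Model 5 (0.079), GelMA 2 (0.051), PMLGH 3 (0.14) or PMLGH 4 (0.094) ended that call, as did a fit of these 2 groups alone (0.052), and without Model 2 the difference was -0.23 (0.0036).

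In the regulatory particle, the ATPase Psmc4 and the lid subunit Psmd8 were lower. Psmd8 had 104.1, 96.6 and 114.4 CPM in Model, 91.9, 87.3 and 91.7 CPM in GelMA and 88.7, 90.9 and 90.5 CPM in PMLGH. Both GelMA and PMLGH lay below Model without overlap. The log2 difference was -0.22 ± 0.06 in PMLGH (edgeR adjusted p = 0.016, or 0.073 without Model 5) and -0.22 ± 0.06 in GelMA (adjusted p = 0.021, or 0.11 without Model 5, 0.071 without GelMA 3 and 0.056 and 0.055 with limma). Psmc4 had 106.9, 100.5 and 101.3 CPM in Model, 95.9, 92.7 and 90.3 CPM in GelMA and 91.6, 88.2 and 90.2 CPM in PMLGH. It was called in PMLGH (-0.19 ± 0.05, adjusted p = 0.014, but 0.066 without Model 1 and 0.061 without PMLGH 3) and not in GelMA (-0.15, adjusted p = 0.062), where it was called with RLE scaling (0.041), upper-quartile scaling (0.045) or DESeq2 (0.035), or without Model 2 (-0.19, 0.015). Without Model 2 the PMLGH difference of Psmc4 was -0.24 (adjusted p = 0.0029), and those of Psmd8 were -0.31 in PMLGH (adjusted p = 0.00039) and -0.30 in GelMA (adjusted p = 0.00056). The other 5 ATPases and 10 non-ATPases were not called in either comparison.

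The 2 most lowered members were not subunits of the finished particle. Psmf1 encodes PI31, a protein that binds the core and inhibits it in the test tube, and Psmd5 is a chaperone that holds the ATPase ring during assembly. Psmf1 had 150.7, 120.8 and 154.1 CPM in Model, 120.5, 111.9 and 109.0 CPM in GelMA and 113.0, 102.7 and 114.8 CPM in PMLGH. Model 1 and Model 5 stood far above all others, and Model 2 lay just above GelMA 2. The log2 difference was -0.36 ± 0.08 in PMLGH (edgeR adjusted p = 0.0041) and -0.32 ± 0.08 in GelMA (adjusted p = 0.012). The PMLGH call held under all 18 alternatives, with adjusted p from 6.3e-06 to 0.03. The GelMA call was lost without Model 1 (0.054) or Model 5 (0.063). Without Model 2 the differences were -0.50 in PMLGH (adjusted p = 6.3e-06) and -0.45 in GelMA (adjusted p = 2.5e-05).

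Psmd5 had 78.4, 64.5 and 77.5 CPM in Model, 65.5, 61.5 and 58.1 CPM in GelMA and 63.8, 56.6 and 56.6 CPM in PMLGH. Model 2 was again the lowest Model library, and it lay below GelMA 2. The log2 difference was -0.32 ± 0.08 in PMLGH (edgeR adjusted p = 0.0089), called under all 18 alternatives, and -0.25 ± 0.08 in GelMA (adjusted p = 0.035). The GelMA call was lost without Model 1 (0.14), Model 5 (0.12), GelMA 3 (0.081) or GelMA 4 (0.12), and with limma (0.1 and 0.099). Without Model 2 the differences were -0.43 in PMLGH (adjusted p = 0.0001) and -0.37 in GelMA (adjusted p = 0.0006).

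The counts of calls depended on single Model libraries, for members and for all genes. Without Model 2, 3 of 48 members were called higher in PMLGH, the third being Psme2, and 11 lower, beside 16.7% and 16.3% of all genes at that setting. In GelMA 0 were then higher and 14 lower, beside 15.1% and 14.4%. Without Model 1 the counts were 0 higher and 3 lower in PMLGH, beside 12.2% and 7.97%, and 0 higher and 1 lower in GelMA, beside 9.45% and 6.03%. Without Model 5 the member counts were the same as without Model 1, beside 11.7% and 8.74% in PMLGH and 9.22% and 6.33% in GelMA.

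**Figure D4:**
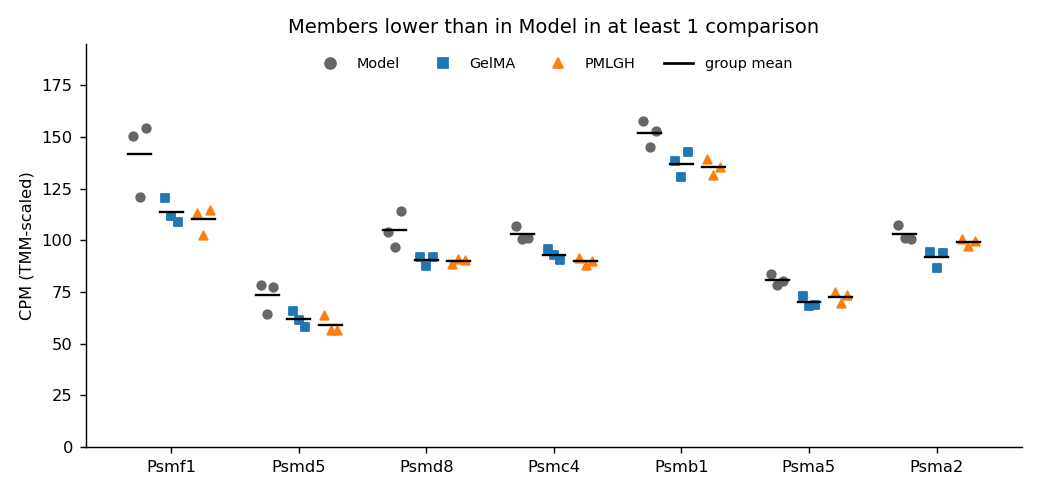
CPM of the members called lower in at least 1 comparison with Model, per library (points) with the group mean (black line). Model 2 lies toward the GelMA and PMLGH libraries for Psmf1 and Psmd5, and GelMA and PMLGH overlap one another for every gene shown except Psma2.

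The assembly chaperones of the core gave no call with TMM scaling. Pomp, which matures the core and lies outside the symbol rule, differed by -0.04 in PMLGH (edgeR adjusted p = 0.64) and by -0.13 ± 0.06 in GelMA (adjusted p = 0.16) against Model. Psmg1 had a log2 difference of -0.19 ± 0.08 in PMLGH (adjusted p = 0.087), which was called with upper-quartile scaling (-0.23, 0.042). Psmg3 gave the highest member value in GelMA, 0.32 ± 0.14 (adjusted p = 0.12), from 11.5, 9.49 and 13.4 CPM in Model and 12.0, 14.5 and 16.3 CPM in GelMA, which overlap. Both Psmg genes were picked after their values were seen.

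Between PMLGH and GelMA no member was called by edgeR. Member differences ran from -0.27 to 0.17 on the log2 scale, with a median of 0.02 beside 0.00 for all genes. In CPM, libraries did not overlap for 8 higher and 3 lower members, beside 12.3% and 11.4% of all genes. Psmb9, Psmb10 and Psme2 were among the 8 in CPM. In FPKM the counts were 6 higher and 6 lower, beside 9.91% and 14% of all genes, and Psmb9 overlapped. A miss of the threshold does not show that the groups had equal levels.

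The genes around the proteasome were described from lists written with earlier results of these data known. Of 15 measured genes of proteasome-associated proteins, 4 were called lower and 1 higher in PMLGH against Model (median -0.13), and 3 lower and 1 higher in GelMA. Of all genes 11.9% were called lower and 15.7% higher in PMLGH, and 9.88% and 12.7% in GelMA. Ubqln4, a shuttle that carries ubiquitin-tagged proteins to the regulatory particle, had 220.8, 186.0 and 215.8 CPM in Model, 164.4, 155.8 and 159.3 CPM in GelMA and 153.8, 143.0 and 159.7 CPM in PMLGH. Its GelMA and PMLGH libraries all lay below the Model libraries, of which Model 2 was the lowest. Its log2 difference was -0.45 ± 0.07 in PMLGH (edgeR adjusted p = 0.00021) and -0.38 in GelMA (adjusted p = 0.0011). The ubiquitin receptor Adrm1 fell by 0.21 in PMLGH (adjusted p = 0.021) and by 0.24 in GelMA (adjusted p = 0.012), and Uchl5, the deubiquitinase that docks on Adrm1, fell by 0.35 ± 0.09 in PMLGH (adjusted p = 0.011). In PMLGH the call of Adrm1 was lost without Model 5 (0.058), PMLGH 3 (0.1) or PMLGH 4 (0.056), and that of Uchl5 without Model 1 (0.066) or PMLGH 3 (0.062).

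Ubiquitin itself is encoded by 4 genes, of which Ubb and Rps27a fell against Model in both groups. Of the 9 genes of the ubiquitin supply list 3 were called lower and 0 higher in each comparison with Model. The shares of all genes called lower were 11.9% in PMLGH and 9.88% in GelMA, and those called higher 15.7% and 12.7%. Ubb had 2211, 1945 and 2305 CPM in Model, 1767, 1548 and 1651 CPM in GelMA and 1700.2, 1685 and 1761 CPM in PMLGH. Its libraries did not overlap with Model in either group. Ubb fell by 0.33 ± 0.07 in PMLGH (edgeR adjusted p = 0.003) and by 0.38 in GelMA (adjusted p = 0.0014). Rps27a fell by 0.38 ± 0.10 in PMLGH (adjusted p = 0.011, or 0.064 without PMLGH 4) and by 0.41 in GelMA (adjusted p = 0.0093). Rps27a encodes ubiquitin fused to a ribosomal protein and belongs to a family with many processed copies, so its counts depend on how reads matching several copies were counted, which is not stated.

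The next list held 9 genes linked to the transcription of proteasome genes, not all of them transcription factors. Against Model 3 were called higher and 3 lower in PMLGH, beside 15.7% and 11.9% of all genes. In GelMA 1 was called higher and 3 lower, beside 12.7% and 9.88%. Bach1, a repressor at antioxidant response elements, fell by 0.31 in PMLGH (edgeR adjusted p = 0.00078) and by 0.37 in GelMA (adjusted p = 0.00026). Of the small Maf partners, Mafk fell by 0.34 (adjusted p = 0.0014) and 0.24 (adjusted p = 0.016) and Mafg by 0.21 (adjusted p = 0.012) and 0.24 (adjusted p = 0.006), while Maff rose by 0.74 (adjusted p = 0.0055) and 0.54 (adjusted p = 0.038). Nfe2l1, the factor that raises proteasome genes when proteasome activity falls short, rose by 0.25 ± 0.06 in PMLGH (adjusted p = 0.0074) and Nfe2l2 by 0.23 ± 0.05 (adjusted p = 0.0062); both were picked after their values were seen, and the call of Nfe2l1 was lost without Model 5 (0.061). In GelMA the call of Maff was lost in 8 alternatives, among them those without Model 1 (0.12), Model 2 (0.07), Model 5 (0.064), GelMA 2 (0.1), GelMA 3 (0.16) or PMLGH 2 (0.054), and that of Mafk in 5, among them those without Model 1 (0.076), Model 5 (0.052) or GelMA 3 (0.064). No constitutive subunit was called higher beside them.

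Genes that take proteasome products to MHC class I molecules were level or slightly higher in PMLGH. Of 10 such genes 3 were called higher and 0 lower in PMLGH against Model (median 0.17), 1 higher in GelMA against Model (median 0.04) and 1 higher in PMLGH against GelMA (median 0.10). In the same order 15.7%, 12.7% and 1.8% of all genes were called higher. Tap2, a chain of the peptide transporter, had 63.1, 63.2 and 57.9 CPM in Model, 65.6, 60.9 and 62.6 CPM in GelMA and 69.2, 72.5 and 76.7 CPM in PMLGH. PMLGH lay above both other groups, which overlapped. Tap2 rose by 0.25 ± 0.06 in PMLGH against Model (edgeR adjusted p = 0.0089, or 0.071 without Model 5), the trimming peptidase Erap1 by 0.30 ± 0.07 (adjusted p = 0.0041) and the loading-complex protein Pdia3 by 0.25 ± 0.06 (adjusted p = 0.0042). Pdia3 was also the gene called in GelMA against Model (0.16, edgeR adjusted p = 0.047). That call was lost with RLE scaling (0.077), upper-quartile scaling (0.068), no filter (0.12) and a fit of these 2 groups alone (0.12). Leaving out any 1 library except Model 2 also ended it (0.061 to 0.19). Tap1, the neighbour of Psmb9, rose by 0.23 ± 0.06 in PMLGH against GelMA (adjusted p = 0.049), a call that 12 of 19 alternatives lost, among them those without Model 1 (0.057), Model 5 (0.073) or any 1 of the GelMA and PMLGH libraries (0.052 to 0.25). Its difference of 0.11 against Model was not called (adjusted p = 0.2).

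Several genes of interferon-gamma signalling and response rose in both groups against Model. Of 13 tested genes 11 were called higher in PMLGH against Model (median 0.73), 8 in GelMA against Model (median 0.40) and 6 in PMLGH against GelMA (median 0.32), and 0 lower in each. The shares of all genes called higher were 15.7%, 12.7% and 1.8% in these comparisons. Irf1, the transcription factor that acts on immunoproteasome promoters, had 54.3, 55.8 and 54.5 CPM in Model, 73.4, 72.6 and 75.2 CPM in GelMA and 94.6, 91.6 and 86.3 CPM in PMLGH. The 3 groups did not overlap for Irf1, in the order Model, GelMA, PMLGH. Irf1 rose by 0.73 ± 0.06 in PMLGH against Model (edgeR adjusted p = 2.7e-07), by 0.43 in GelMA against Model (adjusted p = 8.3e-05) and by 0.30 in PMLGH against GelMA (adjusted p = 0.0057). Gbp2, a GTPase of the interferon response, rose by 1.15 ± 0.07, 0.59 and 0.56 in the same comparisons (adjusted p = 1.4e-08, 2.2e-05 and 0.00017). The chemokine gene Cxcl10 rose by 3.13 ± 0.19 (adjusted p = 1.5e-08) in PMLGH against Model. The smallest differences of the list were below those of Psmb9 and Psmb10, with a lowest value of 0.11 in PMLGH against Model. The chemokine gene Cxcl9, 1 of the 6 called in PMLGH against GelMA (0.98, adjusted p = 0.018), lost that call with DESeq2 (0.078), robust spread (0.095) or limma (0.15 and 0.1) and without GelMA 2 (0.07), GelMA 3 (0.067), GelMA 4 (0.069), PMLGH 2 (0.091) or PMLGH 3 (0.079). Ifng itself, with counts of 0, 3 and 0 in Model, 0, 0 and 1 in GelMA and 17, 4 and 12 in PMLGH, was too low to be tested. Without Model 2, the named genes of the proteasome-associated, ubiquitin, transcription, peptide loading and interferon lists that were called against Model kept their call and direction, except Maff in GelMA (adjusted p = 0.07).

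**Figure D5:**
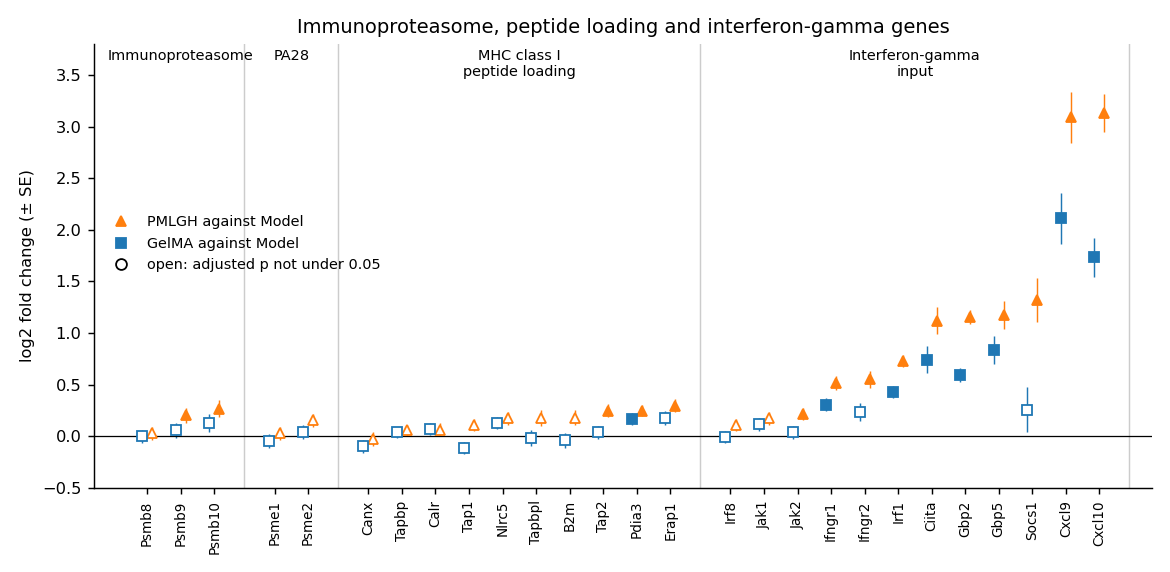
Log2 fold change with its SE in PMLGH against Model (triangles) and GelMA against Model (squares), which share the Model libraries, for the immunoproteasome subunits, Psme1 and Psme2, peptide loading genes and interferon-gamma genes; open symbols did not pass the edgeR test. Irf1 lies at 0.73 and Gbp2 at 1.15 in PMLGH against Model, beside 0.27 for Psmb10 and 0.03 for Psmb8.

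Marker genes of immune cells, which carry much of the immunoproteasome, differed between the groups as well, and their part in the results was not tested. Their calls stand beside 15.7% of all genes called higher and 11.9% lower in PMLGH against Model. These shares were 12.7% and 9.88% in GelMA against Model, and 1.8% and 1.64% in PMLGH against GelMA. The summed level of 12 T and NK cell markers was 274.6 to 338.8 CPM in Model, 354.1 to 384.2 CPM in GelMA and 404.4 to 416.9 CPM in PMLGH, with 8 of 12 called higher in each group against Model. Most of this sum was Cd4 (mean 145.5, 174.8 and 203.4 CPM in Model, GelMA and PMLGH) and Nkg7 (96.7, 100.2 and 104.0 CPM). For 10 macrophage markers the sum was 8051 to 10143 CPM, 8090 to 8871 CPM and 9910 to 10687 CPM, with 7 called higher in PMLGH and 3 higher and 1 lower in GelMA against Model. In PMLGH against GelMA 5 of the 10 macrophage markers were called higher and 0 lower. In that comparison 0 of the 12 T and NK cell markers and 0 of the 6 dendritic cell markers were called. Most of the macrophage sum was Lyz2 (mean 7864, 7177 and 8793 CPM). For 6 dendritic cell markers the sum was 42.1 to 43.6 CPM, 42.6 to 52.7 CPM and 51.2 to 52.8 CPM, with 4 called higher in each group. Model 2 held the highest Psmb9 and Psmb10 of its group. It also held the highest T and NK cell, macrophage, B cell and neutrophil sums of its group, though not the highest dendritic cell sum. Such sums follow their most abundant markers and are not measures of cell number. For 7 B cell markers the sum was 264.3 to 408.0 CPM in Model, 358.7 to 460.1 CPM in GelMA and 233.3 to 283.5 CPM in PMLGH, with 4 called higher in GelMA against Model, 1 lower in PMLGH against Model and 6 lower in PMLGH against GelMA. For 8 neutrophil markers it was 9936 to 13130 CPM, 11432 to 12401 CPM and 11435 to 14661 CPM, with 2 of the 7 tested called higher in PMLGH and 1 in GelMA against Model.

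Markers of red cell precursors moved with the lowered members, and their part in those results was not tested either. All 7 erythroid markers were called lower in both groups against Model, beside 11.9% of all genes in PMLGH and 9.88% in GelMA. Their sums were 7762 to 9491 CPM in Model, 6443 to 6947 CPM in GelMA and 6229 to 6895 CPM in PMLGH. Model 2 had the lowest erythroid sum of its group, and likewise the lowest Psmf1, Psmd5, Ubb and Ubqln4. The 8 osteoblast markers, which define the labelled bone, summed to between 10097 and 12437 CPM in Model, 20224 and 22519 CPM in GelMA and 21417 and 25038 CPM in PMLGH. Most of this sum was Col1a1 (mean 9734, 18386 and 20642 CPM in the same order), which Dmp1 did not follow (405.1, 822.3 and 382.2 CPM). Against Model 8 were called higher in GelMA and 7 in PMLGH, beside 12.7% and 15.7% of all genes. In PMLGH against GelMA 1 was called lower and 0 higher, beside 1.64% and 1.8%. The 7 skeletal muscle markers summed to 446.8 to 678.9 CPM, 2192 to 2657 CPM and 741.4 to 1048 CPM. Of these, 7 were called higher in GelMA and 6 in PMLGH against Model, and 7 lower in PMLGH against GelMA, beside the same shares of all genes. None of the markers in these lists was at 0 in all libraries.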

How the data were processed

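Tibia RNA of 9 libraries in 3 labelled groups was analysed. The authors deposited raw counts per gene symbol, and FPKM that matched count over library total over a fixed gene length (to 0.0001 of the value) in 22798 of 22798 genes with counts, so they hold the same measurement; 970 genes were at 0. The submitters' processing notes name DESeq2 and R 3.2.0 without roles. For the aligner, the counter, the build, the annotation and the strand setting, the answer is not given in the sources used; reads of overlapping antisense genes cannot be separated.

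Counts were tested with edgeR 4.0.16 in R 4.3.3 (filterByExpr, which left 16816 genes, TMM scaling, quasi-likelihood fit of 1 mean per group to all 9 libraries, 6 residual degrees of freedom, common biological coefficient of variation 10.1%). SEs of log2 fold changes are approximate: each is the change over the square root of its F statistic. Tests were two-sided, with Benjamini-Hochberg adjustment over all tested genes per comparison and a threshold of 0.05. Pair ratios were tested by exact permutation of libraries, 9 comparisons in all. Alternatives were RLE and upper-quartile scaling, no filter or at least 1 CPM in 3 libraries, DESeq2 1.42.0, robust spread, a fit of the 2 groups alone, limma 3.58.1 on log2(FPKM + 0.1) and log2(FPKM + 1), the replicate block and leaving out each library. The fit was tested on simulated data. Totals of 34571478 to 37166383 counts gave every tested member at least 292 counts in each library.

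Members and lists were chosen with earlier results of these data known. Named genes were the catalytic subunits, activators, PI31, Pomp, Psma8 and Psmb11, and per list and comparison up to 3 called genes of smallest p; others named are marked as picked after their values were seen. Promoter windows are from RefSeq (GRCr8). Some genes of these lists are counted but not reported by name here.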

Additional observations from a re-analysis of the deposited data

How the results depend on the processing

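Counts of called members moved with the settings, and the cause was not tested. In PMLGH against Model the 2 higher members became 1 with RLE scaling, 1 with upper-quartile scaling, 1 with no filter, 1 with DESeq2 and 0 in a fit of the 2 groups alone, and 0 to 3 when a library was left out; the 5 lower ones became 8 with upper-quartile scaling and 3 to 11 when a library was left out. In GelMA against Model the 5 lower members became 8 with RLE scaling, 9 with DESeq2 and 2 with limma on either pseudocount, and 1 to 14 when a library was left out. Counted in FPKM in place of CPM, a choice made after seeing the data, members without overlap in GelMA against Model became 4 higher (from 0) and 9 lower (from 18), and in PMLGH against GelMA 6 lower (from 3). The difference between groups in the log2 ratio of Psmb8 to Psmb5 turned negative when single libraries were left out. It ran from -0.014 to 0.088 in PMLGH against Model, from -0.070 to 0.087 in GelMA against Model and from -0.036 to 0.12 in PMLGH against GelMA. The differences of the other pairs kept their sign.

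Among the named genes, signs turned only for those that no comparison called. In PMLGH against Model, upper-quartile scaling gave -0.0088 for Psmb8, -0.0095 for Psme1 and -0.0066 for Psme3. When a library was left out, the values ran from -0.0405 to 0.066 for Psmb8, -0.059 to 0.063 for Psme1, -0.031 to 0.046 for Psme3 and -0.10 to 0.0002 for Pomp. In GelMA against Model, limma with a pseudocount of 0.1 or 1 gave 0.0353 and 0.0349 for Psmb8, 0.0164 and 0.0162 for Psmb5 and 0.0011 with either for Psmb6, and the filter of 1 CPM gave 0.0022 for Psmb8. There, leaving out a library gave -0.091 to 0.029 for Psmb5 and -0.012 to 0.061 for Psme2. In PMLGH against GelMA it gave -0.029 to 0.068 for Psmb8 and -0.0000 to 0.11 for Psme1.

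GelMA and PMLGH share replicate numbers, but same-numbered libraries did not deviate together (r = 0.014, 0.027 and -0.008 across genes). These values show no shared deviation, but they cannot show whether the numbers pair the libraries in another way. With the number as a replicate block, 0 members were higher and 1 lower (Psme4, adjusted p = 0.049), and the log2 ratio differences were 0.03, 0.17 and 0.14 for Psmb8, Psmb9 and Psmb10 over their counterparts. For Psma8, Psmb11 and Ifng the counts were too few for any comparison.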
